A study of Mus musculus with 24 samples.

Results

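The cardiac ventricle of adult mice that lack Tatdn1 was compared with that of wild-type mice across all gene-level probe sets of an expression microarray. The 12 arrays labelled Heart were taken from the 24 arrays of the study, 6 from Tatdn1-/- mice and 6 from Tatdn1+/+ mice. The remaining 12 arrays hold brain cortex of the same mice and were used where the genotype effect was compared between the tissues and in 1 alternative fit over all 24 arrays. Of 22206 gene-level probe sets tested, 19572 carried 1 gene symbol, and these stood for 19505 genes.

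The Tatdn1-/- group (genotype label tatd-/-) held 3 males and 3 females aged 2 months, and so did the Tatdn1+/+ group (genotype label wild type), with 1 array per mouse. The Tatdn1-/- allele was made by flanking an exon of Tatdn1 with loxP sites in embryonic stem cells, removing the selection cassette with ROSA-FLPe mice, and deleting the exon in the whole body with CAG-Cre, which was bred out afterwards. Loss of the exon shifts the reading frame to a premature stop. The background is C57BL/6J, and the study obtained homozygous mice of both genotypes by intercrossing Tatdn1+/- mice. Whether the mice on these arrays were littermates is not stated. The deletion is carried by every cell of the body from early development, so effects within the heart and effects of other organs cannot be told apart. The codes of the 6 Tatdn1-/- mice (M78-0, M78-1, M77-1, F77-1, F77-2, F77-3) and of the 6 Tatdn1+/+ mice (M75-0, M75-1, M75-2, F76-1, F76-2, F76-3) share no leading number, and no source used here says what the codes mark, so a litter or cage cannot be told apart from genotype. The leading number also separates all males from all females in the Tatdn1+/+ group. In the Tatdn1-/- group it does so for all males but M77-1. Values for each sex on its own therefore cannot be told apart from what the codes mark. The labels give ventricle, and the study's methods name the left ventricle.

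TATDN1 belongs to the TatD family, metal-dependent hydrolases found from bacteria to mammals and known in bacteria and yeast as DNases. Mice and humans carry the related genes Tatdn2 and Tatdn3. Cardiomyocytes take up most of the wall of the ventricle, with endothelial cells, fibroblasts, pericytes, smooth muscle cells and macrophages between them. In whole tissue, fewer cells of a type and less RNA per cell cannot be told apart.

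Values are log2 expression levels as deposited. The 23 background control entries averaged 1.79 to 2.10 on the 12 arrays, so a level near 2 is that of background, and the array medians of the gene-level probe sets ran from 3.13 to 3.30. Differences are Tatdn1-/- minus Tatdn1+/+ on the log2 scale with their standard error (SE), and adjusted p values are from limma with Benjamini-Hochberg adjustment over all 22206 probe sets. The exact permutation test is two-sided over all 924 ways to draw 6 of the 12 mice, and its smallest p is 0.00216. The number of arrays limits the precision, and the median SE of a difference was 0.157. On the first principal component (16.84% of the variance) the Tatdn1+/+ mice M75-0 and F76-1 stood apart, at -52.47 and -23.54, while the other 10 mice lay between -4.09 and 20.62.

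The disrupted gene separated the genotypes. Tatdn1 was at 4.97, 5.40 and 6.03 (lowest, median and highest mouse) in Tatdn1-/- ventricle, against 6.53, 6.87 and 7.15 in Tatdn1+/+ ventricle. No Tatdn1-/- mouse reached the lowest Tatdn1+/+ mouse. Tatdn1 fell by 1.36 (SE 0.18, adjusted p = 0.0156 from limma; exact permutation p = 0.00216), which is a level 2.57-fold lower. Where its probes lie relative to the deleted exon is not known here, and the Tatdn1-/- levels stayed above those of the background controls. The difference was -1.44 in males and -1.28 in females. Of the related genes, Tatdn2 had a difference of -0.20 (SE 0.15, adjusted p = 0.757) and Tatdn3 one of 0.16 (SE 0.23, adjusted p = 0.883), with overlapping groups for both.

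**Figure D1:**
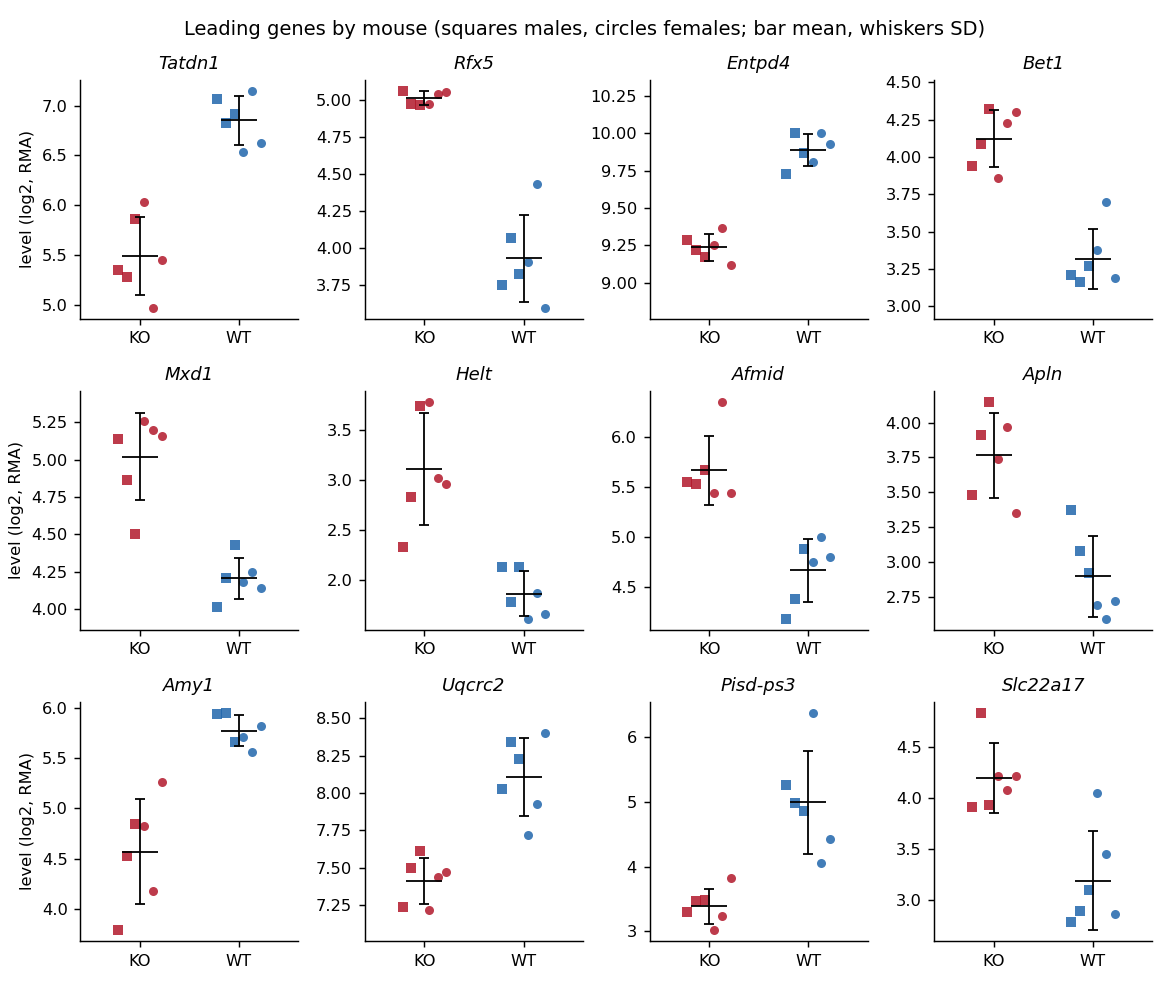
Levels of 12 genes in each mouse (y axis, log2), Tatdn1-/- (KO, red) left of Tatdn1+/+ (WT, blue), squares for males and circles for females, with the mean and the SD over 6 mice. The groups are fully separate for Tatdn1, Rfx5, Entpd4, Bet1, Mxd1, Helt, Afmid, Amy1, Uqcrc2 and Pisd-ps3 and overlap for Apln and Slc22a17.

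Beside Tatdn1, 1 gene rose and 1 fell past an adjusted p of 0.05. In all, 3 of 22206 probe sets were called, or 0.0135%. Rfx5, a DNA-binding subunit of the complex that activates class II histocompatibility genes, was at 4.96, 5.01 and 5.06 in Tatdn1-/- ventricle, against 3.60, 3.87 and 4.43 in Tatdn1+/+ ventricle. The 6 Tatdn1-/- mice lay close together and all above the highest Tatdn1+/+ mouse. Rfx5 rose by 1.08 (SE 0.13, adjusted p = 0.0139 from limma). Entpd4, which hydrolyses nucleotides in the lumen of the Golgi and lysosomes, was at 9.12, 9.23 and 9.37 in Tatdn1-/- ventricle, against 9.73, 9.90 and 10 in Tatdn1+/+ ventricle. Entpd4 fell by 0.65 (SE 0.10, adjusted p = 0.0467 from limma), and a second probe set of the gene had -0.61 (SE 0.11, adjusted p = 0.122). These calls depended on single mice. That of Tatdn1 ended when Tatdn1-/- mouse M78-1 was left out (adjusted p = 0.067) or Tatdn1+/+ mouse M75-1 (0.0613) or M75-2 (0.0677), that of Rfx5 without M78-1 (0.0543) or M75-2 (0.0677), and that of Entpd4 without any 1 mouse other than M75-0 (0.0692 to 0.198), while the differences stayed between -1.47 and -1.26 for Tatdn1, 1.01 and 1.18 for Rfx5 and -0.68 and -0.63 for Entpd4.

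Differences in the ventricle were small for most genes. The absolute difference was under 0.5 for 97.2% of the probe sets. A nominal p (not adjusted) under 0.05 was reached by 1129 probe sets with a higher level in Tatdn1-/- ventricle (5.08%) and by 749 with a lower one (3.37%). Of the 19505 genes these were 1040 (5.33%) and 618 (3.17%), the shares to set beside the counts of every gene list below. The split by direction depended on the scaling: 60.1% of these probe sets were higher in the deposited values, 47.7% after quantile normalization of the 12 arrays (862 higher, 946 lower) and 47% with each array centred on its median (846 higher, 954 lower). The median difference over all probe sets was 0.019 in the deposited values and -0.010 with centred arrays. With a fold of at least 1.5 besides, 188 probe sets were higher and 100 lower, and with a fold of at least 2, 17 were higher and 8 lower. The 6 mice of each genotype did not overlap in 131 probe sets (0.59%), 87 of them higher and 44 lower in Tatdn1-/- ventricle.

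**Figure D2:**
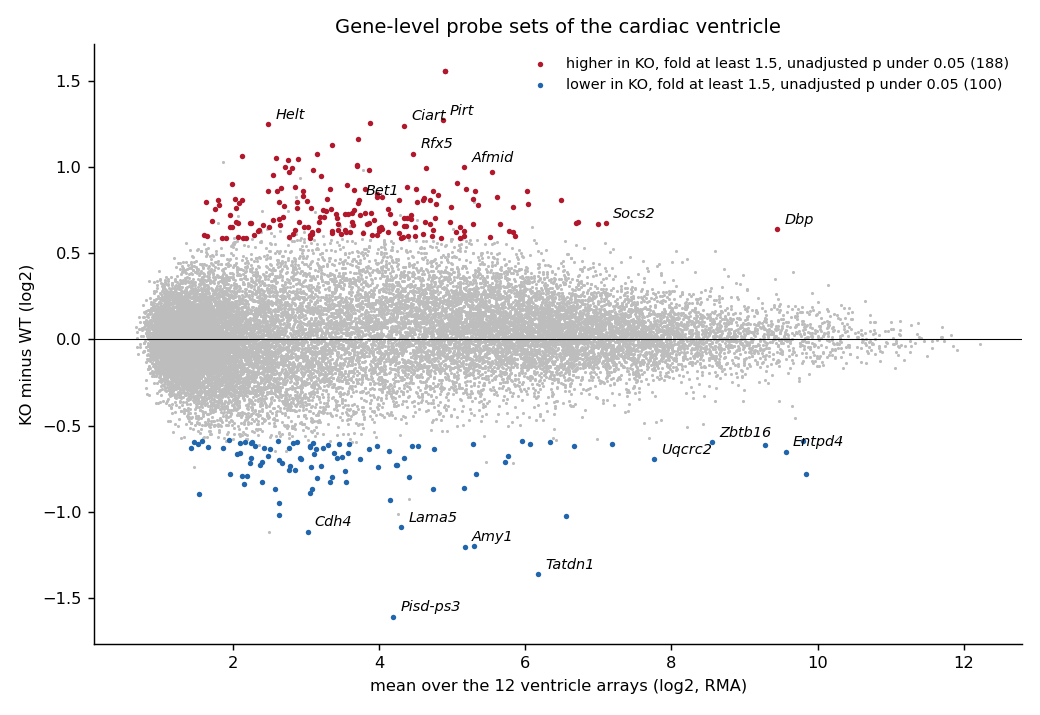
Difference between Tatdn1-/- and Tatdn1+/+ ventricle (y axis, log2) against the mean level over the 12 arrays (x axis, log2) for the 22206 gene-level probe sets. The 188 probe sets in red and the 100 in blue passed a fold of 1.5 with a nominal p under 0.05, and 97.2% of all probe sets lie within 0.5 of no difference.

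Among the genes next in order of p, 7 had an adjusted p under 0.1. Bet1, a SNARE that carries vesicles between the endoplasmic reticulum and the Golgi, was at 3.86, 4.16 and 4.32 in Tatdn1-/- ventricle, against 3.16, 3.24 and 3.70 in Tatdn1+/+ ventricle, a difference of 0.81 (SE 0.13, adjusted p = 0.0673). Mxd1, a partner of Max that represses Myc targets, was at 4.50, 5.15 and 5.26, against 4.01, 4.19 and 4.43 in Tatdn1+/+ ventricle (0.82, SE 0.14, adjusted p = 0.0991). For both genes every Tatdn1-/- mouse lay above every Tatdn1+/+ mouse. Helt, a basic helix-loop-helix factor known from developing neurons, was at 2.33, 2.99 and 3.78 in Tatdn1-/- ventricle, against 1.61, 1.82 and 2.13 in Tatdn1+/+ ventricle (1.25, SE 0.22, adjusted p = 0.0991). The Tatdn1+/+ levels of Helt were those of background controls. Nrsn2, a membrane protein of neuronal vesicles, had a difference of 0.90 with Tatdn1+/+ levels at background too. Wfdc1, a secreted protein with a protease inhibitor fold, had 0.79. On the lower side, Amy1, which encodes a starch-cleaving amylase, was at 3.79, 4.67 and 5.26 in Tatdn1-/- ventricle, against 5.56, 5.76 and 5.95 in Tatdn1+/+ ventricle (-1.20, SE 0.20, adjusted p = 0.0991). The study's own RT-qPCR of Amy1 in heart stayed below the detection threshold. Lrmda, named for melanocyte differentiation, had -0.87 (SE 0.15), with Tatdn1-/- levels near background (1.77 to 2.53).

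The other genes among the 15 with the smallest p in each direction did not reach an adjusted p of 0.1. On the higher side, Ccl12, a chemokine that attracts monocytes, had a difference of 0.78 at levels near background. Gcc1, a golgin of the trans-Golgi network, had 0.75, Wdr6, a partner of tRNA methylation, 0.55, and 1500004A13Rik 0.81. Nol4l had 0.81 and Adam34l 0.52, and both group means of Adam34l (1.77 in Tatdn1-/- and 1.25 in Tatdn1+/+ ventricle) were below the background controls. On the lower side, Clec12b, an inhibitory lectin receptor, had -0.90 and the fructose transporter Slc2a5 -0.78, both with Tatdn1-/- levels at background. Fubp3, which binds single-stranded nucleic acids, had -0.66, Ovol3 -0.56, and Lypd5 and Lypd6b, of the Ly6 domain family, -0.59 and -0.72. The Tatdn1-/- mean of Lypd5 (1.66) was also below the background controls. The adjusted p of these 12 genes ran from 0.122 to 0.225.

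Size and p did not go together for every gene. The largest negative difference was that of Pisd-ps3, a pseudogene, with 3.02, 3.38 and 3.82 in Tatdn1-/- ventricle, against 4.06, 4.92 and 6.37 in Tatdn1+/+ ventricle (-1.61, SE 0.29, adjusted p = 0.122). Its Tatdn1+/+ mice spread widely and still did not overlap with the Tatdn1-/- mice. The cadherin gene Cdh4 had -1.12 (SE 0.31), the laminin chain Lama5 -1.09 (SE 0.28) and Actl6b, a neuronal subunit of chromatin remodelling complexes, -0.93 (SE 0.22). The largest positive differences were those of Pirt, a regulator of sensory ion channels (1.27, SE 0.31), Fam81a (1.26, SE 0.27), Helt, the clock gene Ciart (1.24, SE 0.49), the synaptic calcium sensor Syt1 (1.16, SE 0.50), the zinc finger gene Zfp563 (1.13, SE 0.29) and Fbxl16, an F-box protein (1.08, SE 0.36). Fbxl16 had 0.69 (SE 0.33) without the Tatdn1-/- mice M78-1 and F77-2. Apart from Helt, each of these 6 genes had overlapping groups.

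The samples carried the defining genes of ventricular muscle. The sarcomere genes Myh6, Tnnt2 and Actc1 lay between 10.93 and 11.46 in all 12 mice, and the ventricular light chains Myl2 and Myl3 between 10.70 and 11.41. Of 12 cardiomyocyte markers, 1 was higher and 1 lower at a nominal p under 0.05, with a median difference of -0.02. The lung markers Sftpc, Scgb1a1 and Sftpa1 and the neutrophil markers S100a8, S100a9 and Ngp had group means no higher than the background controls.

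One heart held atrial transcripts. Myl7, the atrial light chain, was at 7.89 in Tatdn1-/- mouse F77-2, against 1.17 to 2.43 in the other 5 Tatdn1-/- mice and 1.71 to 3.08 in Tatdn1+/+ mice. Sln, the atrial regulator of the calcium pump, was at 8.06 in F77-2, against 2.41 to 2.86 in the other Tatdn1-/- mice and 2.92 to 3.44 in Tatdn1+/+ mice. The mean over 9 atrial markers was 7.15 in F77-2, while in the other 11 hearts none exceeded 5.05. None of the 9 had a nominal p under 0.05, and the list's median difference of 0.313 was -0.050 without F77-2. The mesothelial markers, which cover the outer surface of the heart and atria, also had their highest mean in F77-2 (4.24, against at most 3.50 in Tatdn1+/+ mice).

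A second heart stood out for neuronal transcripts. Snap25, a synaptic SNARE, was at 7.09 in Tatdn1-/- mouse M78-1, against at most 5.67 in the other Tatdn1-/- mice and 5.96 in Tatdn1+/+ mice. Syt1 was at 6.42 in M78-1, against 2.78 to 5.19 in the other Tatdn1-/- mice and 2.32 to 3.80 in Tatdn1+/+ mice. The mean over 15 neuron markers ran from 3.39 to 4.59 in Tatdn1-/- ventricle, highest in M78-1, against 3.16 to 3.80 in Tatdn1+/+ ventricle. Of these 15 genes, 5 were higher and 0 lower at a nominal p under 0.05, with a median difference of 0.197. Without M78-1 and F77-2, 2 were higher and 1 lower.

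**Figure D3:**
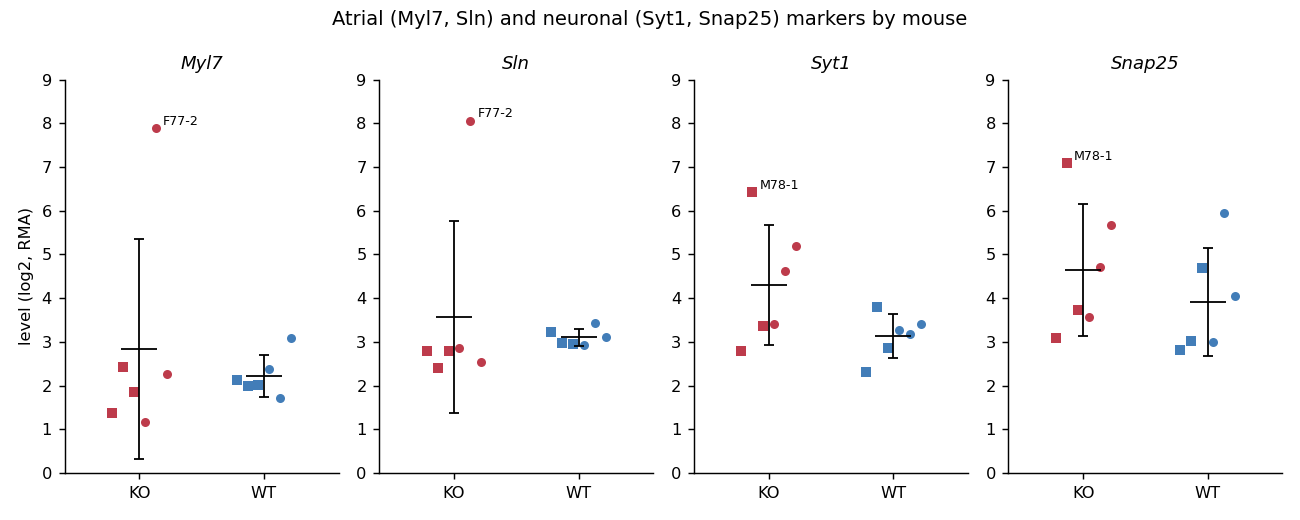
Levels (y axis, log2) of the atrial markers Myl7 and Sln and of the neuronal markers Syt1 and Snap25 in each mouse, Tatdn1-/- (KO, red) left of Tatdn1+/+ (WT, blue), squares for males and circles for females, with mean and SD over 6 mice. Mouse F77-2 reached 7.89 and 8.06 for the atrial genes, and mouse M78-1 reached 6.42 and 7.09 for the neuronal ones.

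Neuronal genes were among the larger differences, and some of these were smaller without these 2 hearts. Syp, a synaptic vesicle protein, had a difference of 0.86 (SE 0.28), which was 0.57 (SE 0.25) without M78-1 and F77-2. Rtn1, a reticulon of neurons, had 0.98 (SE 0.33) and 0.55 (SE 0.24) without them, and Syt1 1.16 (SE 0.50) and 0.55 (SE 0.40). Ncam1, an adhesion molecule of nerve and muscle, had 0.87 (SE 0.35) and 0.72 (SE 0.40) without them. The dopamine receptor gene Drd2 had 1.05 (SE 0.44) with Tatdn1+/+ levels around background, and 0.61 (SE 0.45) without them. Gfra3, a receptor of artemin in sensory and sympathetic neurons, had 0.81 (SE 0.23) and a larger 1.13 (SE 0.19) without M78-1 and F77-2. Sox10, a factor of Schwann cells, had 0.44 (SE 0.20), 0.60 (SE 0.18) without those mice and 0.27 (SE 0.22) without the Tatdn1+/+ mice M75-0 and F76-1. Penk, the enkephalin precursor, which cardiac muscle also makes, had 0.42 (SE 0.16) and 0.40 (SE 0.19) without M78-1 and F77-2. The smallest adjusted p of these was 0.383, for Gfra3. The autonomic markers Th and Dbh were at background in both genotypes.

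Genes of the circadian clock formed one of the lists with a larger median. The mammalian clock is a loop in which the activators CLOCK and BMAL1 (gene Arntl) drive their own repressors, the PER, CRY, REV-ERB, DEC (Bhlhe40 and Bhlhe41) and CIART proteins, and the levels of all of them depend on the hour of death, which no source used here gives. Of 17 core clock genes, 14 had a higher mean in Tatdn1-/- ventricle, 3 at a nominal p under 0.05, and 1 was lower at that p. The median was 0.144 (0.115 to 0.129 in the rescaled values), against 0.023 over all genes, and 0.1 to 0.185 with each mouse left out.

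The 4 genes at that p ran in opposite directions by their role. Bhlhe41, a repressor, was at 6.89, 7.25 and 7.96 in Tatdn1-/- ventricle, against 6.32, 6.71 and 6.93 in Tatdn1+/+ ventricle (0.67, SE 0.17, adjusted p = 0.308). Ciart, also a repressor, was at 3.99, 4.69 and 6.35 in Tatdn1-/- ventricle, against 2.42, 3.97 and 4.85 in Tatdn1+/+ ventricle (1.24, SE 0.49, adjusted p = 0.517). Bhlhe40 had a difference of 0.38 (SE 0.18). Arntl, the activator, was at 4.86, 5.0 and 6.21 in Tatdn1-/- ventricle, against 5.35, 6.16 and 6.64 in Tatdn1+/+ ventricle (-0.71, SE 0.28, adjusted p = 0.52). The groups overlapped for each of these genes. The Tatdn1-/- males M78-0 and M78-1 had Arntl levels like those of the Tatdn1+/+ mice (6.13 and 6.21). The other Tatdn1-/- mice, the male M77-1 among them, were at 4.86 to 5.02.

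Of 20 clock output genes, 1 was higher and 1 lower at a nominal p under 0.05. Dbp, a transcription factor driven by CLOCK and BMAL1, was at 9.38, 9.81 and 10.06 in Tatdn1-/- ventricle, against 8.83, 9.13 and 9.53 in Tatdn1+/+ ventricle (0.64, SE 0.15, adjusted p = 0.252). Nfil3, a repressor that binds the same sites as DBP, was at 3.95, 4.52 and 4.65, against 4.54, 5.09 and 5.51 in Tatdn1+/+ ventricle (-0.63, SE 0.16, adjusted p = 0.308). In females the difference of Dbp was 0.96 and in males 0.32. The cortex of the same mice had 0.30 for Dbp, -0.07 for Bhlhe41, 0.13 for Ciart and -0.05 for Arntl.

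CLOCK and BMAL1 bind the E-box CACGTG, which reads the same on both strands. Among RefSeq promoter windows of 300 bases (250 before and 50 after the start, GRCm38.p6), 7.15% of 32851 hold it, and 0.0883% (29 windows) hold it 3 or more times. Windows were given for 14 of the 17 core clock genes, 4 of which hold it, and for 17 of the 20 output genes, 5 of which hold it. These are counts of genes, and the 14 core genes have 21 windows. They are therefore not directly comparable with the share of all windows. Beside Ciart and Bhlhe41, the core genes with it are Cry1 and Per1, neither of which reached a nominal p under 0.05. Bhlhe40 and Dbp, both higher at that p, are not among the genes with it. A link between the E-box and the level was not tested. The windows of Ciart and Bhlhe41, 2 of the 3 core genes higher at a nominal p under 0.05, are shown 5′ to 3′ with the E-box in capitals. That of Ciart, on the minus strand of chr3:95882179-95882478, holds it at positions 135, 193 and 207, and that of Bhlhe41, on the minus strand of chr6:145865371-145865670, at position 98, counted from 1 at the 5′ end.
Ciart: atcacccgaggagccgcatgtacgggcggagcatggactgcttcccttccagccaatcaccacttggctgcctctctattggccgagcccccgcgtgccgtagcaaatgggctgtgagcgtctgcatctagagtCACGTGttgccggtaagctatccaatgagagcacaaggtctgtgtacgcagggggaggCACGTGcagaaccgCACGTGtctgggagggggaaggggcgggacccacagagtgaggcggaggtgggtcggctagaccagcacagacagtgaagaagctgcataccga
Bhlhe41: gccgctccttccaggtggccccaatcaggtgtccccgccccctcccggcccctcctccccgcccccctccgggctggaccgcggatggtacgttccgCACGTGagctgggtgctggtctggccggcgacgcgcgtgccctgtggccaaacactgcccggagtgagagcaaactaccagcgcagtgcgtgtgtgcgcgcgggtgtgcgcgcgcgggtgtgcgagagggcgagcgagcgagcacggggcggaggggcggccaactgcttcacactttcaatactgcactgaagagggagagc
The matches describe the sequence, and binding was not measured.

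Genes induced by glucocorticoids had the lowest median of the 36 pathway lists. Corticosterone, the glucocorticoid of mice, varies with the hour and with handling, and acts in cardiomyocytes through a nuclear receptor. Of 26 genes, 19 had a lower mean in Tatdn1-/- ventricle, 5 at a nominal p under 0.05, and 0 were higher at that p. The median was -0.275 (-0.305 to -0.283 in the rescaled values), and -0.319 to -0.172 with each mouse left out. It was -0.080 in males and -0.399 in females. The mean over the 26 genes was 6.68 to 6.79 in Tatdn1-/- mice. Tatdn1+/+ mouse M75-0 was below them at 6.54, and the other Tatdn1+/+ mice were above them at 6.87 to 7.31.

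Zbtb16, a zinc finger repressor, was at 8.0, 8.21 and 8.57 in Tatdn1-/- ventricle, against 8.46, 8.90 and 9.13 in Tatdn1+/+ ventricle (-0.60, SE 0.13, adjusted p = 0.223). Map3k6, a stress kinase, was at 2.32, 3.0 and 3.26 in Tatdn1-/- ventricle, against 3.51, 3.72 and 4.15 in Tatdn1+/+ ventricle (-0.83, SE 0.17, adjusted p = 0.169). No Tatdn1-/- mouse reached the lowest Tatdn1+/+ mouse for Map3k6, whereas the groups overlapped for Zbtb16. Fkbp5, a chaperone of the receptor and one of its most used readouts, was at 6.93, 7.35 and 7.81, against 7.53, 7.98 and 8.70 in Tatdn1+/+ ventricle (-0.58, SE 0.19, adjusted p = 0.442). Cebpb had -0.33 (SE 0.12).

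**Figure D4:**
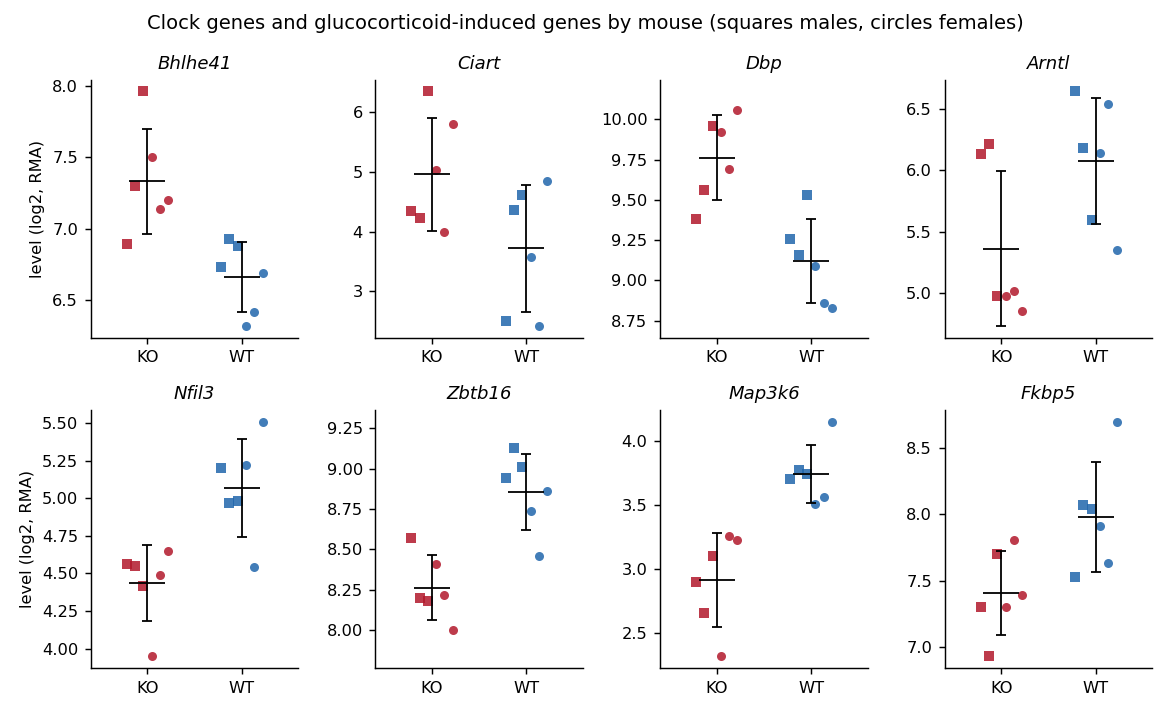
Levels (y axis, log2) of 5 clock genes and 3 glucocorticoid-induced genes (Zbtb16, Map3k6, Fkbp5) in each mouse, Tatdn1-/- (KO, red) left of Tatdn1+/+ (WT, blue), squares for males and circles for females, with mean and SD over 6 mice. Every Tatdn1-/- mouse lies below every Tatdn1+/+ mouse for Map3k6 alone, and the other 7 genes overlap.

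Growth hormone signals through JAK2 and STAT5, which induce the feedback inhibitors Socs2 and Cish, and the circulating IGF1 complex is held by Igfals. Of 38 genes of this axis, 3 were higher (7.89%) and 2 lower (5.26%) at a nominal p under 0.05, near the 5.33% and 3.17% of all genes, with a median of 0.038. Socs2 was at 7.12, 7.45 and 7.72 in Tatdn1-/- ventricle, against 6.45, 6.71 and 7.19 in Tatdn1+/+ ventricle (0.67, SE 0.15, adjusted p = 0.223). Only 1 Tatdn1+/+ mouse reached the Tatdn1-/- range of Socs2. Igfals was at 4.64, 4.96 and 5.48, against 3.79, 4.24 and 4.54 in Tatdn1+/+ ventricle, with no overlap (0.81, SE 0.18, adjusted p = 0.237). Cish had 0.56 (SE 0.21). The insulin receptor substrate Irs2 had -0.78 (SE 0.29), which was -1.51 in females and -0.05 in males.

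The apelin and angiotensin systems, which act on vascular tone and on the contraction of the heart, each had a receptor with a higher mean. Apln, the ligand apelin, was at 3.35, 3.82 and 4.15 in Tatdn1-/- ventricle, against 2.59, 2.82 and 3.37 in Tatdn1+/+ ventricle (0.87, SE 0.16, adjusted p = 0.122). Its receptor Aplnr was at 5.44, 6.11 and 6.51, against 4.41, 5.31 and 5.86 in Tatdn1+/+ ventricle (0.82, SE 0.25, adjusted p = 0.418). The ranges of ligand and receptor each overlapped between the genotypes. Agtr1a, the type 1 angiotensin receptor, was at 6.82, 7.01 and 7.12, against 6.26, 6.59 and 6.65 in Tatdn1+/+ ventricle, with no overlap (0.45, SE 0.10, adjusted p = 0.237). Npr1, the receptor of the cardiac natriuretic peptides, had -0.47 (SE 0.19), or -0.31 (SE 0.19) without M78-1 and F77-2. The list of natriuretic, angiotensin and endothelin genes had 4 of 25 higher and 1 lower at a nominal p under 0.05, with a median of 0.045.

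Among 43 genes of a list named for the VEGF, angiopoietin, Notch and apelin systems, 5 were higher and 1 was lower at a nominal p under 0.05, with a median of 0.096. Beside Apln and Aplnr the higher genes included members outside those systems. They were Lrpap1, a chaperone of lipoprotein receptors (0.42, SE 0.10), the ephrin Efna1 (0.33, SE 0.11) and its receptor Epha2 (0.51, SE 0.17). The endothelial markers Pecam1, Cdh5 and Kdr had differences of 0.02, 0.12 and 0.18, and 0 of 11 endothelial markers reached a nominal p under 0.05.

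Transcription factors of the ventricle differed in both directions. Irx4, the factor that marks ventricular muscle, was at 6.73, 7.14 and 7.42 in Tatdn1-/- ventricle, against 6.61, 6.69 and 6.83 in Tatdn1+/+ ventricle (0.42, SE 0.13, adjusted p = 0.411). The lowest Tatdn1-/- mouse for Irx4 was F77-2, the heart with atrial transcripts, and the other 5 lay above every Tatdn1+/+ mouse. Hopx, a homeodomain protein of cardiomyocytes that is outside the list counted here, had 0.39 (SE 0.10) and Irx3, a factor of the conduction system, 0.47 (SE 0.16), both without overlap. Meox2, a homeobox factor of cardiac endothelium, had 0.57 (SE 0.16), Sox4 0.81 (SE 0.32) and Nkx2-5, the early cardiac factor, -0.32 (SE 0.15). Irx3 had 0.28 (SE 0.11) and Nkx2-5 -0.15 (SE 0.13) without M75-0 and F76-1. Over the 36 cardiac transcription factors, 4 were higher (11.1%) and 2 lower (5.56%) at a nominal p under 0.05, against 5.33% and 3.17% of all genes. The median of 0.033 was -0.020 after quantile normalization.

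In the sarcomere, 4 of 47 genes were higher (8.51%) and 1 was lower (2.13%) at a nominal p under 0.05, with a median of 0.049. Over all genes these shares were 5.33% and 3.17%. Tcap, which caps titin at the Z-disc, was at 9.64, 9.85 and 10.09 in Tatdn1-/- ventricle, against 9.28, 9.49 and 9.63 in Tatdn1+/+ ventricle (0.39, SE 0.12, adjusted p = 0.419). Ky, the gene of a muscle protein that binds filamin, had 0.77 (SE 0.22), the actin-binding Xirp1 0.30 (SE 0.10) and Mybpc3, myosin-binding protein C, 0.22 (SE 0.10). Mylk3, the kinase of the ventricular light chain, was at 9.20, 9.24 and 9.52, against 9.48, 9.65 and 9.88 in Tatdn1+/+ ventricle (-0.35, SE 0.10, adjusted p = 0.388). Of 26 genes of cardiac stress and the fetal program, 3 were higher and 0 lower at that p, with a median of 0.026. They were Myc (0.65, SE 0.21), Timp1 (0.56, SE 0.18) and the growth factor Hbegf (0.38, SE 0.17, and 0.25, SE 0.18, without M75-0 and F76-1). Nppa, the atrial natriuretic peptide and the usual marker of ventricular stress, was at 9.72, 10.33 and 11.05, against 9.02, 10.15 and 10.69 in Tatdn1+/+ ventricle (0.31, SE 0.30, adjusted p = 0.812), highest in F77-2.

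Of 18 genes of the dystrophin glycoprotein complex, which links the cytoskeleton of the muscle cell to the matrix, 4 were higher and 1 was lower at a nominal p under 0.05, with a median of 0.07. The syntrophin Sntb1 had 0.67 (SE 0.19), the caveolin Cav3 0.44 (SE 0.14), the sarcoglycan Sgce 0.31 (SE 0.10) without overlap, and sarcospan (Sspn) 0.29 (SE 0.12), or 0.17 (SE 0.11) without M75-0 and F76-1. Of 35 potassium channel genes, 7 were higher and 0 lower at that p, with a median of 0.156, and 3 were higher without M78-1 and F77-2. In females alone 1 was higher and 3 were lower, and in males alone 5 were higher. Over all genes, too, more were higher than lower at that p in the deposited values (5.33% and 3.17%), but not after quantile normalization (785 and 792 genes), where 5 potassium channel genes were higher and 0 lower. Kcnj5, a subunit of the acetylcholine-gated channel, was at 7.23, 7.44 and 7.55 in Tatdn1-/- ventricle, against 6.57, 6.92 and 7.25 in Tatdn1+/+ ventricle (0.51, SE 0.13, adjusted p = 0.313). Kcnj8, a pore of the ATP-sensitive channel, had 0.50 (SE 0.16) and 0.27 (SE 0.12) without M75-0 and F76-1, Kcnip2, a subunit of the transient outward current, 0.33 (SE 0.11) and Kcnj4 0.45 (SE 0.17) at background levels.

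Among 34 calcium handling genes, 4 were higher and 0 lower at a nominal p under 0.05, with a median of 0.066. Casq1, the calsequestrin of skeletal muscle, had 0.99 (SE 0.29), the kinase subunit Camk2b 0.91 (SE 0.35) and the calcium pump Atp2b2 0.63 (SE 0.24). Camk2b had 0.33 (SE 0.20) without the Tatdn1+/+ mice M75-0 and F76-1. Of 19 sodium channels and connexins, 4 were higher at that p, with a median of 0.179, but 0 were after quantile normalization (median 0.150). The ankyrins Ank2 and Ank3, which anchor channels in the membrane, had 0.24 (SE 0.10) and 0.26 (SE 0.12), and Gjc1, a connexin of the conduction system, 0.34 (SE 0.14). Ank3 had 0.15 (SE 0.10) without M75-0 and F76-1. In adrenergic signalling, 1 of 26 was higher (the cyclase Adcy5, 0.27) and 1 lower (the phosphodiesterase Pde4b, -0.32).

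Collagens and matrix genes ran in both directions. Of 28 collagens, 2 were higher and 5 lower at a nominal p under 0.05, with a median of -0.026. Col3a1, a fibrillar collagen of the cardiac interstitium, was at 5.88, 6.40 and 7.22 in Tatdn1-/- ventricle, against 4.40, 5.75 and 6.06 in Tatdn1+/+ ventricle (0.86, SE 0.27, adjusted p = 0.419). The 2 highest Tatdn1+/+ mice lay within the Tatdn1-/- range. Col6a1, of microfibrils around cells, had 0.43 (SE 0.14). On the lower side, Col8a1 had -0.76 (SE 0.27) and the basement membrane chain Col4a3 -0.56 (SE 0.21), at levels of 1.82 to 4.34. Col4a3 had -0.35 (SE 0.21) without M75-0 and F76-1. Among 46 matrix glycoproteins and processing enzymes, 2 were higher and 1 lower at that p, with Ccdc80 at 0.59 (SE 0.15), Emilin1 of elastic fibres at 0.57 (SE 0.23) and Lama5 at -1.09.

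Matrix proteases and their inhibitors had 7 of 36 genes higher and 2 lower at a nominal p under 0.05, with a median of 0.091. The lysosomal collagenase Ctsk was at 2.58, 3.15 and 3.97 in Tatdn1-/- ventricle, against 1.81, 2.37 and 2.98 in Tatdn1+/+ ventricle (0.89, SE 0.25, adjusted p = 0.384). Tmprss13, a membrane serine protease, had 1.05 (SE 0.28), the urokinase gene Plau 0.80 (SE 0.27) and Timp1 0.56 (0.36, SE 0.17, without M78-1 and F77-2). Their Tatdn1+/+ medians, 2.46, 2.15 and 2.14, were close to the background controls. Tmprss13 had 0.77 (SE 0.29) without M75-0 and F76-1. The list had 4 higher and 1 lower without M78-1 and F77-2. Of 11 fibroblast markers, 1 was higher at that p, and Dcn and Lum had 0.04 and 0.14.

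Energy metabolism showed few differences, although the heart is rich in its transcripts. Of 43 genes of fatty acid uptake and oxidation, 0 reached a nominal p under 0.05 in either direction (median 0.037), and of 35 complex I genes, 0 did (median -0.041). Among 38 genes of complexes III to V, 1 did. This was Uqcrc2, a core subunit of complex III, at 7.22, 7.45 and 7.61 in Tatdn1-/- ventricle, against 7.72, 8.13 and 8.40 in Tatdn1+/+ ventricle, with no overlap (-0.69, SE 0.13, adjusted p = 0.122). In the entry of pyruvate and glucose, 4 of 40 genes were higher and 0 lower at that p, with a median of 0.031. The pyruvate dehydrogenase phosphatases Pdp1 and Pdp2 had 0.24 (SE 0.09) and 0.54 (SE 0.18), the glucose transporter Slc2a1 0.27 (SE 0.10) and Slc16a6, of the monocarboxylate transporter family, 0.73 (SE 0.25). Sucla2, of the citric acid cycle, had 0.38 (SE 0.12) without overlap.

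Lipid synthesis genes were split. Scd4, the desaturase isoform of the heart, was at 5.19, 6.07 and 6.41 in Tatdn1-/- ventricle, against 4.55, 5.02 and 5.71 in Tatdn1+/+ ventricle (0.97, SE 0.21, adjusted p = 0.223), and Hmgcs1, of cholesterol synthesis, had 0.28 (SE 0.11). The related desaturases Scd1 and Scd3 had -0.38 (SE 0.16) and -0.52 (SE 0.24), and Scd3 had 0.01 in females alone. The desaturase genes lie in one cluster and resemble each other in sequence, and no source used here says how far their probes tell them apart.

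The kynurenine pathway, which breaks down tryptophan, had 3 of 13 genes higher and 0 lower at a nominal p under 0.05, with a median of -0.058. Afmid, the formamidase that releases kynurenine, was at 5.44, 5.54 and 6.35 in Tatdn1-/- ventricle, against 4.18, 4.78 and 5.0 in Tatdn1+/+ ventricle, with no overlap (1.00, SE 0.18, adjusted p = 0.108). The highest value was that of F77-2, and without M78-1 and F77-2 the difference was 0.86 (SE 0.17). Kmo, the next hydroxylase, had 0.59 (SE 0.15) with Tatdn1+/+ levels around background, and the transaminase Kyat3 0.27 (SE 0.10).

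Transport from the endoplasmic reticulum to the Golgi, a theme the study pursued, had 6 of 57 genes higher and 1 lower at a nominal p under 0.05, with a median of 0.062. After quantile normalization 2 were higher and 1 lower. Beside Bet1 and Gcc1, the coat subunits Sec23b and Sec24b had 0.49 (SE 0.20) and -0.33 (SE 0.11), and Sec23b had 0.18 (SE 0.13) without M75-0 and F76-1. Of 34 genes of the unfolded protein response, 3 were higher (1 after quantile normalization), namely Ddit3 (0.27, SE 0.10), the disulfide isomerase Pdia6 (0.26, SE 0.12) and Asns (0.37, SE 0.16). Of 26 cytosolic chaperones, Hspa1a (-0.73, SE 0.32) and Hsph1 (-0.28, SE 0.13) were lower at that p and 0 were higher. Hspa1a was at 6.13 in Tatdn1+/+ mouse F76-3, against 3.54 to 4.80 in the other Tatdn1+/+ mice and 3.57 to 4.27 in Tatdn1-/- mice. Its difference came as near 0 as -0.42 with 1 mouse left out. Of 33 proteasome genes, Psmd1 was higher (0.37, SE 0.16, but 0.13, SE 0.10, without M75-0 and F76-1). Among 25 nucleases, Tatdn1 was the lower one at that p, and Rnaseh2a, of the enzyme that removes RNA from DNA, was higher (0.39, SE 0.17, and 0.24, SE 0.18, without M75-0 and F76-1).

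Class II histocompatibility genes are the known targets of Rfx5. Of 21 genes of class I and II histocompatibility and their regulators, Rfx5 alone reached a nominal p under 0.05, with a median of 0.091. In males alone 8 were higher at that p (median 0.233), and in females alone 1 was higher and 1 lower (median -0.044). Its partner Rfxank had 0.30 (SE 0.15) and 0.11 (SE 0.13) without M75-0 and F76-1, the peptide transporter Tap2 0.38 (SE 0.18) and H2-DMa, which loads peptides on class II, 0.39 (SE 0.20), with 0.83 in males and -0.05 in females. Interferon-stimulated genes had 8 of 43 higher and 0 lower, with the highest median of the pathway lists, 0.253. With each mouse left out 5 to 13 were higher and the median ran from 0.156 to 0.325, and without M78-1 and F77-2 5 were higher (median 0.184). In males alone 15 were higher (median 0.401), and in females alone 2 were higher and 1 lower (median 0.118). Ifit3b had 0.87 (SE 0.28) and Trim30a 0.64 (SE 0.19), and the double-stranded RNA proteins Adar and Eif2ak2 had 0.35 (SE 0.10, no overlap) and 0.54 (SE 0.16). The macrophage markers Adgre1, Csf1r and C1qa had 0.37, -0.05 and -0.13, and of the lymphocyte markers, Cd3e and Ms4a1 were at background and Cd79a averaged 2.45 in Tatdn1-/- and 2.39 in Tatdn1+/+ ventricle.

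**Figure D5:**
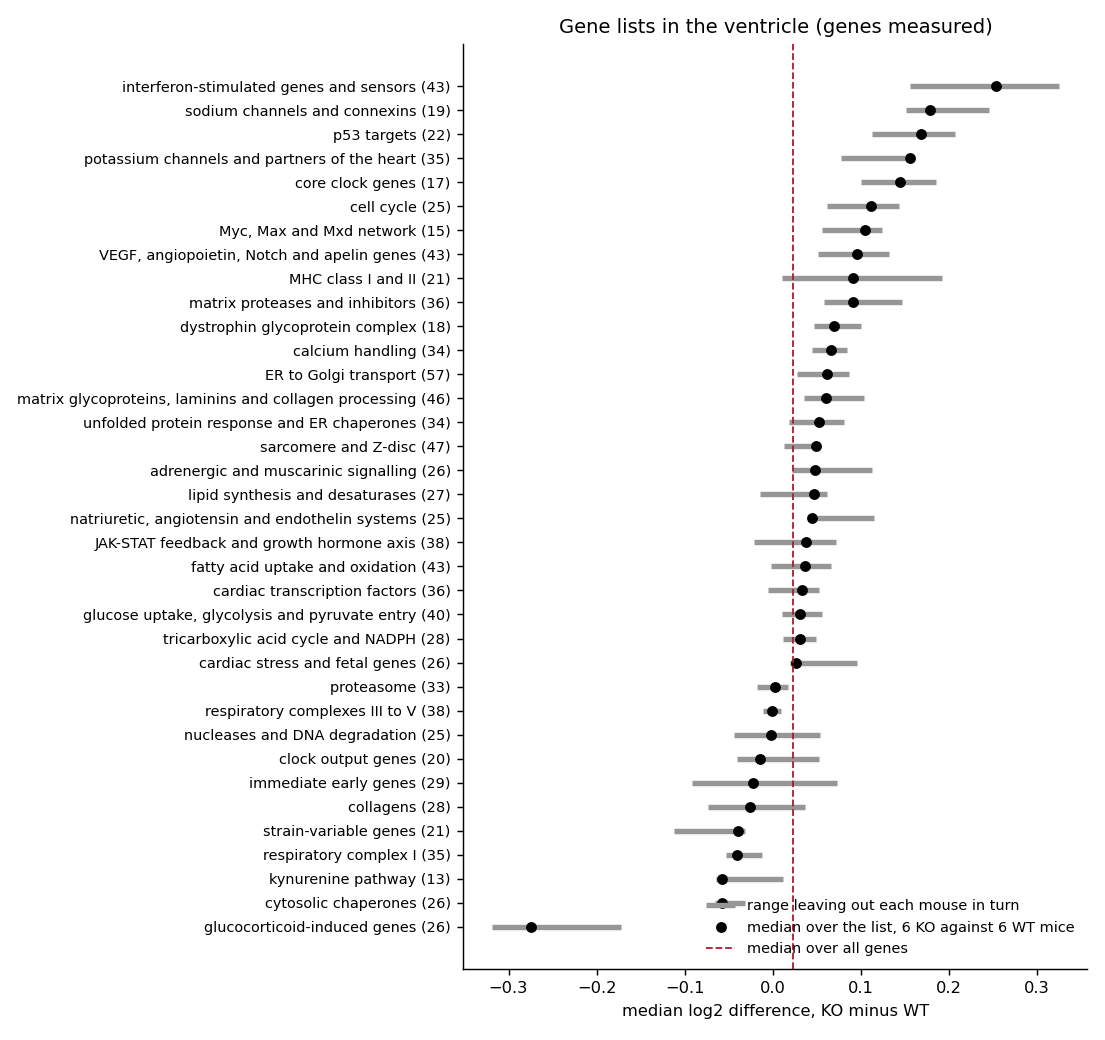
Median difference between Tatdn1-/- and Tatdn1+/+ ventricle (x axis, log2) over the measured genes of 36 pathway lists (number in parentheses), with the range when each mouse is left out in turn (grey) and the median of all genes (dashed, 0.023). The interferon list is highest at 0.253 and the glucocorticoid list lowest at -0.275.

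In the network of Myc, 3 of 15 genes were higher and 2 lower at a nominal p under 0.05. Myc was at 3.78, 4.45 and 4.96 in Tatdn1-/- ventricle, against 2.97, 3.81 and 4.04 in Tatdn1+/+ ventricle (0.65, SE 0.21, adjusted p = 0.428), beside Mxd1 at 0.82, while Mxd3 and Mycl had -0.50 (SE 0.19) and -0.33 (SE 0.12) near background. Among 22 targets of p53, 4 were higher and 1 was lower, with a median of 0.168, and 1 was higher without M78-1 and F77-2. Gadd45a had 0.55 (SE 0.17), the kinase Plk2 0.40 (SE 0.14, but 0.26, SE 0.15, without those mice) and Gadd45g 0.47 (SE 0.19), whereas Bbc3, which promotes apoptosis, had -0.55 (SE 0.16). Among 25 cell cycle genes, Slbp, which binds histone mRNA, had 0.50 (SE 0.17) and Ccne1 0.50 (SE 0.22). Of 29 immediate early genes, Junb (0.60, SE 0.18), Myc and Ier3 (0.41, SE 0.17) were higher and Sik1 (-0.60, SE 0.27) lower, and the difference of Sik1 was -1.08 in females and -0.12 in males.

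Genes that vary between mouse strains or substrains were lower more often than higher. This list was chosen with the results for Entpd4 and Pisd-ps3 known and is not independent of them. Of 21 genes, 7 were lower and 0 higher at a nominal p under 0.05, with a median of -0.039. They included Entpd4, Pisd-ps3, Uqcrc2 and Apobec1, a cytidine deaminase (-0.65, SE 0.22). Of these, only Apobec1 had overlapping groups. It was at 4.76 in M78-0, 4.25 in M78-1 and 3.40 to 3.53 in the other Tatdn1-/- mice, against 4.16 to 4.77 in Tatdn1+/+ mice. In cortex of the same mice, the differences were -0.95 for Entpd4, -1.98 for Pisd-ps3, -0.43 for Uqcrc2 and -0.58 for Apobec1.

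By RT-qPCR in heart, the study reported Slc22a17 and Tmprss13 higher and Lama5 lower in Tatdn1-/- mice, with Amy1 below the detection threshold. On the arrays, genes singled out by the study for the heart had these values. Slc22a17, a receptor of lipocalin 2, was at 3.91, 4.15 and 4.84 in Tatdn1-/- ventricle, against 2.78, 3.0 and 4.05 in Tatdn1+/+ ventricle (1.01, SE 0.22, adjusted p = 0.223). The highest value was that of M78-1, and the difference was 0.88 (SE 0.23) without M78-1 and F77-2. Ptgds, the prostaglandin D2 synthase, was at 8.96, 9.56 and 10.01, against 9.81, 10.10 and 10.29 in Tatdn1+/+ ventricle (-0.59, SE 0.16, adjusted p = 0.373). Tmem185b had 0.59 (SE 0.16). Amy1, Tmprss13, Lama5, Ky, Igfals and Epha2 are given above, and the genotypes overlapped for all of these genes except Amy1 and Igfals. Nrp1 and a gene written IRD2, which the study also names, are not given here.

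The genotype effect differed from that in cortex for 3 probe sets past an adjusted p of 0.05 (0.0135% of 22206). Afmid had 1.00 in ventricle and -0.35 in cortex, a difference of 1.35 (SE 0.23). Hebp1, a heme-binding protein, had 0.53 and -0.63, a difference of 1.17 (SE 0.21). E130304I02Rik had -0.87 and 0.53, a difference of -1.39 (SE 0.25). Each had an adjusted p of 0.0385 from limma over all 24 arrays, and 0.0422 with the mouse as a random block. Within the ventricle, E130304I02Rik was at 2.37, 2.56 and 3.25 in Tatdn1-/- mice, against 3.15, 3.44 and 4.06 in Tatdn1+/+ mice. Rfx5 had 1.08 in ventricle and 0.03 in cortex, and Bet1 0.81 and -0.39, and neither passed this test (adjusted p = 0.107 and 0.17).

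The genotype effect was not found to differ between males and females for any probe set. In limma 0 of 22206 passed an adjusted p of 0.05 (lowest 0.213), 1170 had a nominal p under 0.05, and 0 passed with array weights or without the dimmest probe sets. With 3 mice per sex and genotype, the smallest p of an exact permutation test within a sex is 0.1. Sex is also largely tied to the leading number of the mouse codes.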

How the data were processed

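RNA of 24 tissue samples (RNeasy Mini kit) was amplified, labelled with biotin and hybridized to Mouse Clariom S HT arrays. The log2 values were made by the authors from the scanner files with RMA, which corrects background, normalizes by quantiles and summarises each probe set; no source used here gives the version or which arrays were normalized together. Of 29129 entries of the deposited table, the 22206 gene-level probe sets were tested. Gene symbols came from the platform table, and a gene with several probe sets was read by that with the highest mean.

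Groups were taken from the labels. The 6 Tatdn1-/- and 6 Tatdn1+/+ ventricle arrays were compared by limma 3.58.1 (R 4.3.3; lmFit and eBayes, genotype alone), and p values were adjusted by Benjamini-Hochberg over all probe sets with a threshold of 0.05. The tissues were compared over all 24 arrays, and the sexes by an interaction. Tables were made with Python 3.11.15. The fit was tested on simulated data.

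The 55 gene lists (19 of markers, 36 of pathways, 1185 genes measured of 1303 written) and the genes named were chosen with earlier results of these data known. Genes named were those called, the 15 with the smallest p in each direction, the 8 with the largest difference in each direction at a nominal p (not adjusted) under 0.05, Tatdn1 to Tatdn3, those the study's text names for the heart arrays (without Nrp1 and IRD2), and at most 4 members of each list by p. Hebp1 and E130304I02Rik were also called in the comparison of tissues. No set test was run. Alternatives were quantile normalization, median centring, leaving out the 30% dimmest probe sets, array weights, a term for sex, eBayes with trend and robust settings, an exact Wilcoxon test, a fit over all 24 arrays, each sex on its own, and leaving out 1 mouse at a time. Leaving out the Tatdn1-/- mice M78-1 and F77-2, or the Tatdn1+/+ mice M75-0 and F76-1, was added after seeing the data.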

Additional observations from a re-analysis of the deposited data

Results flagged for a closer look

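A mouse lay far from the other 5 of its group in 23 of 292 groups examined, which were both genotypes of the named genes, by a gap to its nearest neighbour over 0.625 of the group's range. Chance gives about 1 in 20. Mouse F77-2 was the one apart in 6 of them: Afmid (6.35, others 5.44 to 5.67, share of the range 0.75), Pdia6 (0.82), Scd3 (0.65) and Trim30a (0.64) as the highest, and Xirp1 (0.71) and Ccne1 (0.65) as the lowest. Mouse M78-1 was highest for Slc22a17 (4.84, others 3.91 to 4.22, share 0.67), Atp2b2 (0.65), Pdp1 (0.74) and Gadd45g (0.63). Mouse M78-0 was highest for Irx3 (0.64), Mylk3 (0.63) and Sgce (0.67) and lowest for Hmgcs1 (0.72). Among the other Tatdn1-/- mice, F77-1 was lowest for Nfil3 (0.66) and F77-3 for Scd4 (0.69). Among Tatdn1+/+ mice, F76-1 was lowest for Irx3 (0.74) and Ank3 (0.70), M75-0 for Agtr1a (0.70), M75-2 for Myc (0.66), F76-3 for Col3a1 (0.74) and F76-2 for Gadd45a (0.63), and M75-2 was highest for Nol4l (0.65).

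The genotype effect differed between ventricle and cortex for Afmid (1.35), Hebp1 (1.17) and E130304I02Rik (-1.39), by the limma test of the difference itself. The 2 effects had opposite signs for each of the 3 genes.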

How the results depend on the processing

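The 3 calls became 16 with a variance trend and robust fit and 24 with all 24 arrays in 1 fit. They became 0 by the exact Wilcoxon test, in males alone, in females alone, without M75-0 and F76-1, and without M78-1 and F77-2, and ran from 0 to 5 with each mouse left out. With fewer mice the test has less power. Past a fold of 1.5 with a nominal p under 0.05 there were 908 probe sets in males alone and 692 in females alone, against 288 in all mice, and 285 to 392 with each mouse left out. At a nominal p under 0.05 there were 1620 to 2011. The difference of Tatdn1 was -1.36 by the Wilcoxon test (adjusted p = 0.359, and no p under 0.00216 is possible), -1.44 in males, -1.28 in females, -1.39 without M75-0 and F76-1 (adjusted p = 0.0977), -1.18 without M78-1 and F77-2 (0.155), and -1.47 to -1.26 with each mouse left out. The Entpd4 call was also lost with sex as a term (adjusted p = 0.0972). Of 3500 values of named genes under alternatives, 3498 kept their direction. The others were Scd3 (0.01) and H2-DMa (-0.05) in females alone, and the cause was not tested. No paired analysis was possible because the 2 genotypes come from different mice. Levels near background limit the genes there: 48.2% of probe sets had a mean level under 3.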
